A study of Mus musculus with 8 samples.

Results

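Ephrin, Slit and netrin guidance genes encode the ligands, receptors and close effectors of 3 families of axon and cell guidance cues. They were taken here as every gene symbol of the array annotation that names an ephrin, an Eph receptor, a Slit, a Robo receptor, a srGAP, a netrin, a netrin-G or an Unc5 receptor, together with Neo1. The symbols were matched by name and not by any measured value. They gave 39 genes of 16593 on the array, read by 55 probes, and each gene was followed through its brightest probe. A further 5 mouse genes of these families, Ephb2, Robo3, Srgap1, Srgap2 and Dcc, matched no symbol and were not analysed here.

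The arrays read RNA of whole cerebellum from mouse embryos at embryonic day 17.5, an array per animal. The conditional knockout (CKO) animals, 4 in number, were homozygous for a floxed Pals1 allele and carried hGFAP-Cre, a transgene under the human GFAP promoter whose Cre recombinase acts in most neurons and glia of the cerebellum. The 4 wild-type (WT) animals carried the same floxed alleles and no Cre, so the groups differ in the transgene as well as in Pals1. Cells that the promoter does not reach, such as vessels, meninges and microglia, keep Pals1 in both groups.

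Ephrins are ligands held on the cell surface that bind Eph receptor tyrosine kinases on a touching cell, and both cells can respond, often by withdrawing. Slits are secreted repellents read by Robo receptors, with srGAP proteins as effectors inside the cell. Netrin-1 is a secreted cue that attracts through Dcc and neogenin and repels through Unc5 receptors. In the developing cerebellum such cues guide granule cells, Purkinje cells and their axons, and loss of Unc5c lets cerebellar neurons spread beyond the rostral border of the tissue in mice.

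The targeted gene was low in CKO. Mpp5, which encodes Pals1, had normalized log2 levels of 6.28, 6.19, 6.25 and 6.08 in CKO and 7.09, 7.07, 7.09 and 7.01 in WT (limma adjusted p = 8.43e-06). Cerebellar genes were bright in both groups: Zic1, a granule lineage factor, averaged 12.65 in CKO and 13.29 in WT, and Pcp2, a Purkinje cell gene, 12.23 in CKO and 11.64 in WT. Median deposited intensities were 118.7 to 133.5 in CKO and 124.1 to 132.3 in WT. CKO.3 stood apart on the second principal component, which held 16.1% of the variance. Xist, a marker of female cells, was at 6.60 to 6.77 in CKO and 6.83 in WT.3, and at 9.71 to 10.10 on the other WT arrays, so sex was not balanced over the groups. Each called change of a guidance gene is therefore also given as the CKO mean against WT.3 alone, which is a single array. It is also given with the Xist level in the model where that alters the call. Over the tested guidance genes WT.3 lay on average at -0.093 from each gene's mean of 8 arrays. The other WT arrays lay at -0.022, -0.013 and 0.012, so a difference from WT.3 alone includes its lower level.

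Markers of several cell types moved between the groups too. The counts below stand beside 17.8% called over all 12912 genes tested, 9.15% higher and 8.64% lower. All 13 tested markers of dividing cells fell, with mean log2 levels of 8.84 to 9.51 in CKO and 9.86 to 10.09 in WT, and so did all 9 of granule cell progenitors (9.27 to 9.68 in CKO, 10.25 to 10.50 in WT). Granule neuron markers had 5 falls and 1 rise among 7 tested (10.44 to 10.61 in CKO, 10.92 to 11.03 in WT). Purkinje cell markers had 5 rises and 1 fall among 8 tested (10.77 to 10.85 in CKO, 10.38 to 10.60 in WT). Microglial markers had 9 rises among 11 (7.77 to 7.78 in CKO, 7.29 to 7.45 in WT), endothelial markers 2 among 11 (7.74 to 7.95 in CKO, 7.66 to 7.76 in WT) and pericyte markers 2 among 6 (7.64 to 7.99 in CKO, 7.49 to 7.57 in WT). All 10 meningeal fibroblast markers had changes above 0, and 0 were called by limma (3 at an unadjusted p under 0.05), with levels of 7.10 to 8.53 in CKO and 6.88 to 7.29 in WT. Among markers of choroid plexus 2 of 7 fell (6.99 to 7.43 in CKO, 7.45 to 7.63 in WT), the larger fall being that of Otx2, which also marks midbrain. Of these 7 markers 4 had changes above 0, and the median change was 0.04. Markers of cerebellar nuclei and unipolar brush cells had 2 rises and 1 fall among 6, the fall being that of Eomes at -1.26. Bergmann and radial glia had 1 rise and 2 falls among 11, interneurons 1 of each among 5, and the oligodendrocyte lineage 1 fall among 6. The shares called in either direction for endothelium (18.2%) and the oligodendrocyte lineage (16.7%) were near that of all genes. Markers of midbrain or hindbrain outside the cerebellum had 2 falls among 5, with Otx2 counted again. Erythroid markers had 0 calls among 3 by limma (0 at an unadjusted p under 0.05). In whole tissue, fewer cells of a type and less RNA per cell cannot be told apart. The part of these shifts in the guidance genes was not tested.

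Of the 39 guidance genes 34 were bright enough to test, and 7 of these passed the threshold, an adjusted p under 0.05. Ntng1, Epha7, Efnb2 and Efna3 rose in CKO, and Efna4, Neo1 and Unc5b fell. The share called was 20.6% of the tested guidance genes against 17.8% of all 12912 genes tested, so the families as a whole were called about as often as other genes. By direction, 11.8% rose against 9.15% of all genes, and 8.82% fell against 8.64%. The median change was 0.05 on the log2 scale, beside 0.0075 over all genes tested. All arrays of one group lay above all arrays of the other for 9 guidance genes, 26.5%, against 21.2% of all genes. The 7 called changes were spread over ligands and receptors of the ephrin and netrin families, and none of the 7 tested Slit, Robo and srGAP genes passed. Fold changes were modest in the reported fit: the largest was 1.64-fold, and 26 of the 27 genes not past the threshold had 95% intervals within 0.5 log2 on either side of 0. For dim genes these intervals depend on the offset of the background correction, which shrinks their changes. With offset 16 Srgap3 changed by 0.48 (SE 0.163), beside 0.29 (SE 0.102). The SE of Slit1 was 0.163, beside 0.096, and that of the bright Ephb1 0.129, beside 0.117. Intervals within 0.5 were not counted with that offset.

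**Figure D1:**
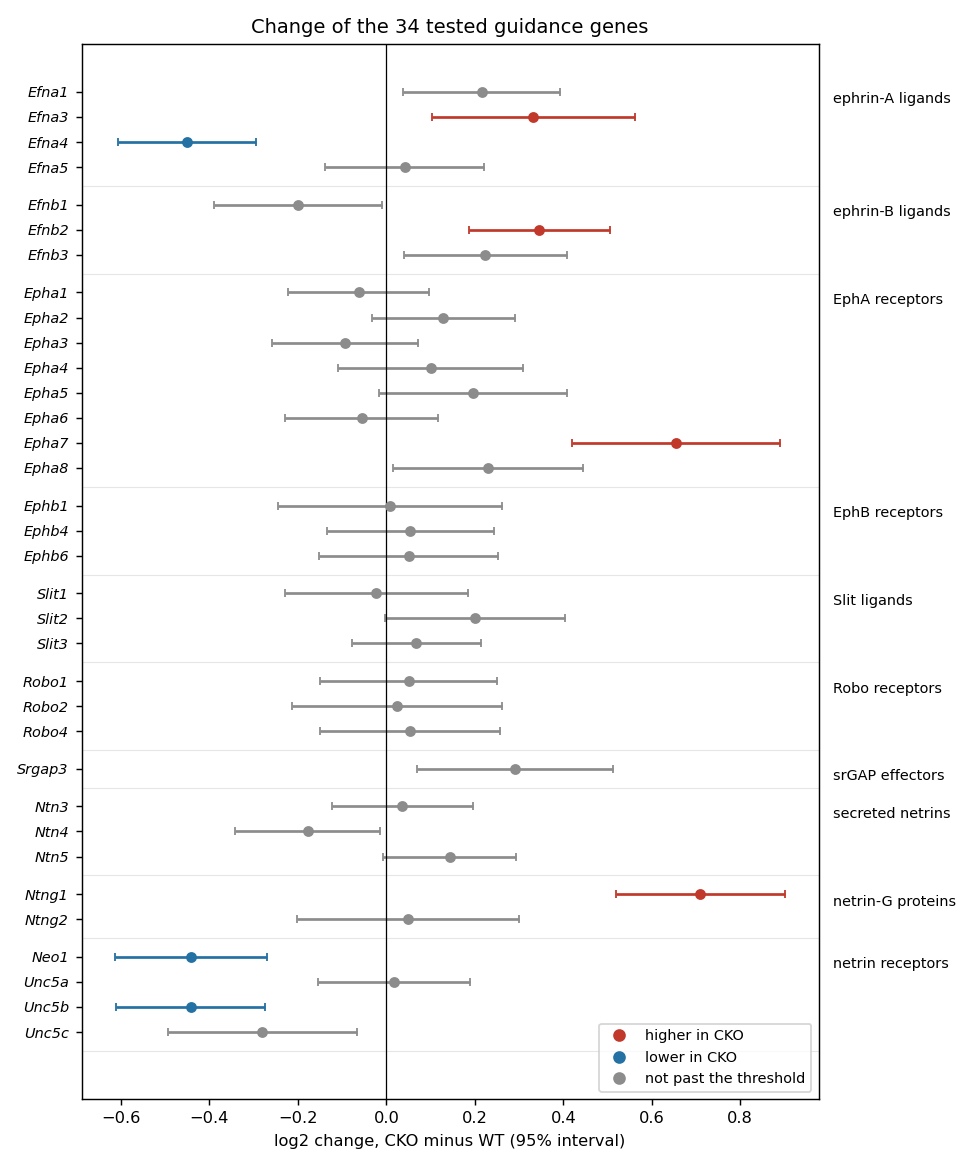
Log2 change (CKO minus WT, horizontal axis) of the 34 tested guidance genes with 95% intervals from the limma fit, grouped by role down the page. Ntng1 at 0.71 and Epha7 at 0.65 lie farthest to the right, Efna4, Unc5b and Neo1 lie between -0.45 and -0.44, and the Robo and EphB receptors sit near 0.

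Ntng1 encodes netrin-G1, a relative of the netrins that is anchored to the cell surface and binds the postsynaptic protein NGL-1 rather than Dcc. It had log2 levels of 9.74, 9.65, 9.75 and 9.95 in CKO and 9.21, 9.07, 8.86 and 9.11 in WT. Every CKO array was above every WT array. It rose by 0.71 on the log2 scale, or 1.64-fold (limma adjusted p = 0.000256, SE 0.089, 95% interval 0.52 to 0.90), the 39th largest of the 1182 rises among all genes. Against WT.3 alone the CKO mean was higher by 0.92. Both dimmer probes also passed over all probes, at 0.47 (adjusted p = 0.00986) and 0.27 (adjusted p = 0.0282), so the 3 probes gave one direction and unequal sizes. The call held under every one of the 22 alternative settings, with changes of 0.48 to 0.93. Ntng2, its paralogue, was at 6.93 ± 0.236 in CKO and 6.88 ± 0.177 in WT (SD, n = 4 each), a change of 0.05 (95% interval -0.20 to 0.30).

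The start of Ntng1 is shown because it had the largest rise. The window covers 250 bases before to 50 after the start, chr3:110143423-110143722 on the minus strand (GRCm38.p6, RefSeq), with the letters TTGGC on either strand, the core of the sites known for nuclear factor I proteins, in capitals.
Ntng1: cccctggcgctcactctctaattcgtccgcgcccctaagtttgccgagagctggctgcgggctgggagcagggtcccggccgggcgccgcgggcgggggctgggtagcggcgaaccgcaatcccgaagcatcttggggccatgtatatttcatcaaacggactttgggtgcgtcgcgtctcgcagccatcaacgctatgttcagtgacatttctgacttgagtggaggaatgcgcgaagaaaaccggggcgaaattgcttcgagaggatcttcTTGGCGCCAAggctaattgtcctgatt
Its 2 matches, starting at bases 274 and 279 from the 5′ end, lie on opposite strands and touch. TTGGC occurs in 46.7% of all 32851 such windows and in 20 of the 40 windows of guidance genes. Among windows of called genes it is in 7 of 9, from 5 of the 7 genes. By gene, it is in 17 of the 35 guidance genes with a window and in 13621 of all 27025 genes. Efna3 and Epha7 each enter the 9 with more than a single window. Those of Epha7, from bases 28812881 and 28812895 of chromosome 4, overlap almost wholly. The E-box CAGCTG was in 0 of the 9 windows of called genes, beside 16.3% of all windows, and CATCTG in 1, beside 17.2%. A match is only a run of letters and shows no binding.

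Secreted netrins did not pass the threshold in either direction. Ntn1, the founding cue of the family, was below the brightness filter and not tested, with log2 levels of 5.93 to 6.40 in CKO and 5.99 to 6.18 in WT. Ntn4, a basement membrane netrin, was at 6.67, 6.89, 6.82 and 6.88 in CKO and 7.13, 6.96, 6.92 and 6.95 in WT. All CKO arrays were below all WT arrays, and the change of -0.18 missed the threshold (limma adjusted p = 0.131). Ntn3 changed by 0.04 and Ntn5 by 0.14 (adjusted p = 0.802 and 0.189).

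Of the 4 tested netrin receptors 2 fell, or 50%, beside 8.64% of all genes, and 4 genes are too few to judge a share. Neo1 encodes neogenin, a receptor related to Dcc that binds netrins and repulsive guidance molecules. It had log2 levels of 9.95, 9.84, 9.82 and 9.78 in CKO and 10.38, 10.42, 10.24 and 10.12 in WT. All CKO arrays were below all WT arrays. Neo1 fell by 0.44 (SE 0.079, adjusted p = 0.00215), and the CKO mean differed from WT.3 alone by -0.39. Unc5b, a repulsive netrin receptor also known from blood vessels, had levels of 7.73, 7.59, 7.55 and 7.47 in CKO and 8.01, 8.17, 7.93 and 8.0 in WT, again without overlap. It fell by 0.44 (SE 0.078, adjusted p = 0.00192), and by 0.35 against WT.3 alone. Both kept their call with any single array left out. With the Xist level in the model Neo1 changed by -0.37 (adjusted p = 0.111) and Unc5b by -0.35 (adjusted p = 0.124), neither past the threshold.

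Unc5c, the receptor whose loss in mice malforms the rostral cerebellum, read 11.17, 11.12, 10.72 and 10.80 in CKO and 11.21, 11.17, 11.25 and 11.30 in WT. All CKO arrays were below all WT arrays, CKO.1 and CKO.2 by very little and CKO.3 and CKO.4 by more. The change of -0.28 (SE 0.099) missed the threshold (adjusted p = 0.0687). It passed without CKO.1 (adjusted p = 0.0324) or CKO.2 (adjusted p = 0.0457), with median scaling (adjusted p = 0.0429) and with trended, robust variance moderation (adjusted p = 0.0416). Across settings its adjusted p lay between 0.0324 and 0.300. Unc5a changed by 0.02 (95% interval -0.16 to 0.19). Unc5d was not tested, with levels of 6.03 to 6.32 in CKO and 5.81 to 6.34 in WT.

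**Figure D2:**
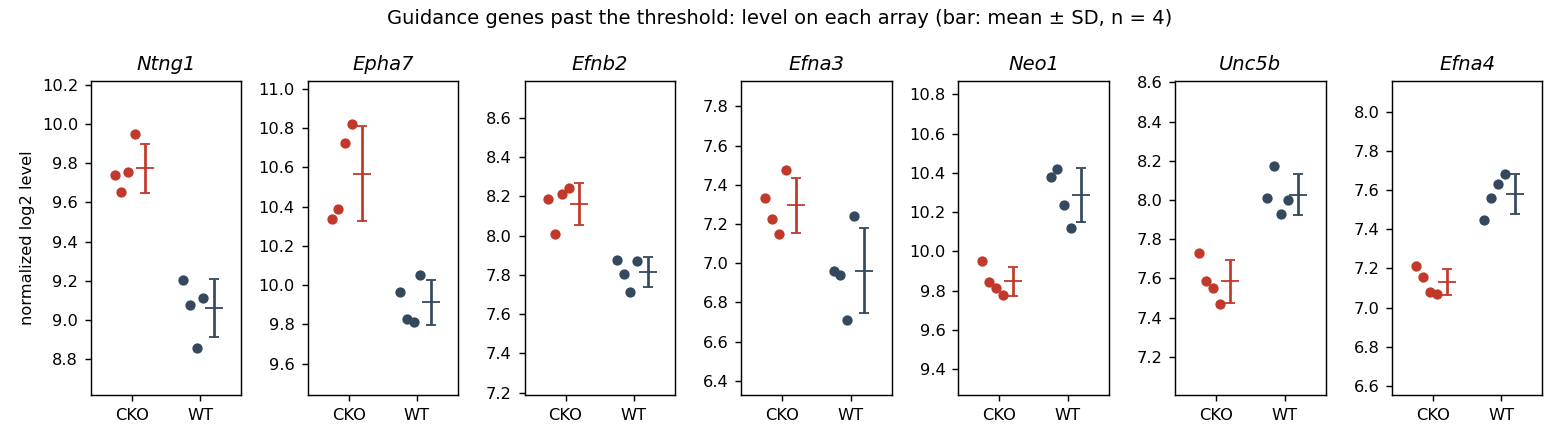
Normalized log2 level of the 7 called guidance genes on each array (points, CKO left of WT), with the mean and SD of 4 arrays beside them; all vertical axes span 1.6 log2. The groups do not overlap for 6 genes, and for Efna3 the WT.4 value of 7.24 lies within the CKO range of 7.15 to 7.47.

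Among Eph receptors 1 of 11 tested passed, beside 17.8% of all genes. Epha7, an EphA receptor that binds A-type ephrins, had log2 levels of 10.34, 10.39, 10.72 and 10.82 in CKO and 9.97, 9.83, 9.81 and 10.05 in WT. The CKO arrays were all higher, and CKO.3 and CKO.4 were the highest of them. The rise was 0.65 (SE 0.109, 95% interval 0.42 to 0.89, adjusted p = 0.00134), or 1.57-fold, and 0.76 against WT.3 alone. Its other probes rose by 0.73 (adjusted p = 5.98e-05) and 0.56 (adjusted p = 0.000737), so that 3 probes gave similar sizes. All 22 settings kept the call, with changes of 0.57 to 0.76.

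**Figure D3:**
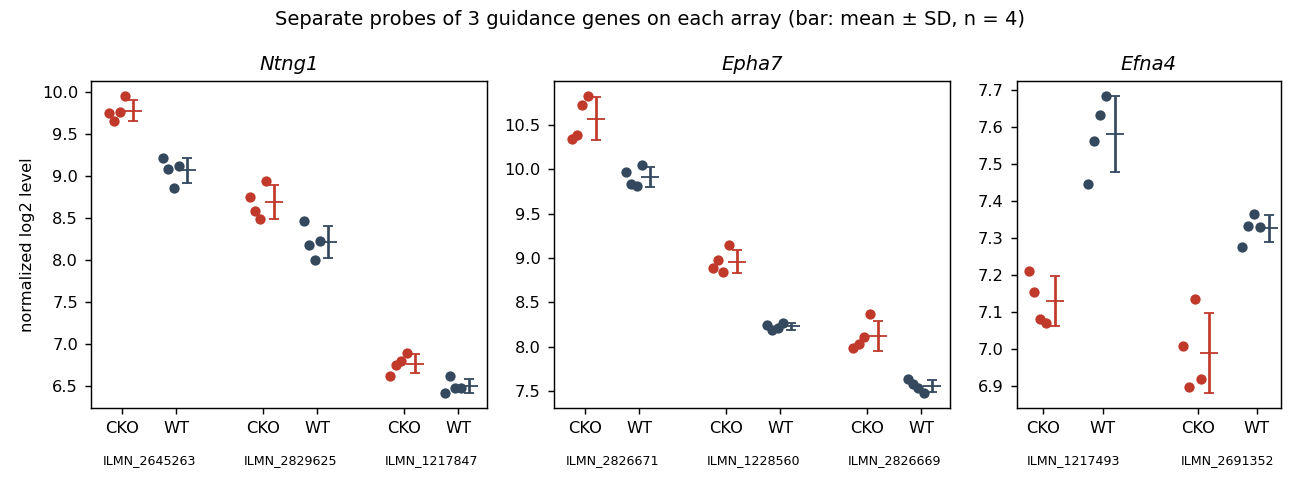
Normalized log2 level on each array for every probe of Ntng1, Epha7 and Efna4 (CKO left of WT for each probe, bars give mean and SD of 4 arrays). All 8 probes differ in the direction of their gene's brightest probe, by 0.27 to 0.71 for Ntng1, 0.56 to 0.73 for Epha7 and -0.45 to -0.34 for Efna4.

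The other EphA receptors stayed within narrower limits. Epha8 changed by 0.23 (unadjusted p = 0.0377, adjusted p = 0.137), with WT.1 at 6.90 the lowest array. Epha5 changed by 0.19 (adjusted p = 0.207), Epha2 by 0.13, Epha4 by 0.10, Epha6 by -0.06, Epha1 by -0.06 and Epha3 by -0.09. Epha4, a receptor for ephrins of both classes, had a 95% interval of -0.11 to 0.31. Epha3 has 3 probes, which changed by -0.09, -0.07 and -0.12 and did not pass. Epha10 was not tested.

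EphB receptors showed no call. Ephb1 was at 12.14, 11.94, 11.51 and 11.65 in CKO and 11.76, 11.82, 11.72 and 11.90 in WT. The group means were alike at 11.81 in CKO and 11.80 in WT, but the CKO arrays were spread on both sides of the WT range. Their SD was 0.286 in CKO and 0.078 in WT. The change was 0.0085 (95% interval -0.24 to 0.26). Ephb4, known from veins, and Ephb6, a receptor without kinase activity, each changed by 0.05, and Ephb3 was not tested.

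Ephrin-A ligands went in both directions. Efna4 had levels of 7.21, 7.16, 7.08 and 7.07 in CKO and 7.45, 7.56, 7.63 and 7.68 in WT, with no overlap. It fell by 0.45 (SE 0.072, 95% interval -0.61 to -0.29, adjusted p = 0.00106), and by 0.50 against WT.3 alone. Its second probe fell by 0.34 (adjusted p = 0.0061 over all probes), and all 22 settings kept the call. Efna3 had levels of 7.33, 7.22, 7.15 and 7.47 in CKO and 6.96, 6.94, 6.71 and 7.24 in WT. WT.4 lay above CKO.2 and CKO.3, so the groups overlapped. The rise of 0.33 (SE 0.106) was just past the threshold (adjusted p = 0.0464), and the CKO mean was 0.58 above WT.3, the lowest array. With the Xist level in the model the change was 0.57 (adjusted p = 0.0535). It lost the call without any single array other than CKO.3 and WT.4 (adjusted p between 0.0645 and 0.134, and between 0.0113 and 0.134 across all settings).

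Efna3 and Efna4 lie next to each other among the protein-coding genes of chromosome 3, with Efna1 on the other side of Efna3, in the RefSeq annotation of GRCm38.p6. Efna1 was at 7.63, 7.35, 7.55 and 7.35 in CKO and 7.30, 7.23, 7.14 and 7.36 in WT. Its change of 0.22 missed the threshold (unadjusted p = 0.0216, adjusted p = 0.0926), and WT.4 overlapped the CKO arrays. The starts of Efna4 and Efna3 are shown because these neighbours gave opposite directions. The windows are chr3:89337979-89338278 and chr3:89322890-89323189, both on the minus strand and built as for Ntng1, and for Efna3 this is the more upstream of 2 starts. Capitals again mark TTGGC on either strand.
Efna4: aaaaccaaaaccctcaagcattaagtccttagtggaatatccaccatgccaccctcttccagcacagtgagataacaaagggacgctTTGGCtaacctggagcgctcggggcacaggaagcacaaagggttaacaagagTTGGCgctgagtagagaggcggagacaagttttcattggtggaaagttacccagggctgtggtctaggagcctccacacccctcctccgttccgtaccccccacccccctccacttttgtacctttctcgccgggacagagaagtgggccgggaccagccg
Efna3: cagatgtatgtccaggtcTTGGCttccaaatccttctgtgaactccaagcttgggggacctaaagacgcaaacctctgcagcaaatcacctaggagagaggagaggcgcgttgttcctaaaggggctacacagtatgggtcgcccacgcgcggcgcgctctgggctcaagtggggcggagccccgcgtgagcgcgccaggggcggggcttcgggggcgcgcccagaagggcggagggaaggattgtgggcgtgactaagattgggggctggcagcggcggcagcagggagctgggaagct
GC content was 55.7% in the Efna4 window and 64.0% in that of Efna3, beside a median of 52.7% over all windows. The match in Efna3 starts at base 19 and those in Efna4 at bases 88 and 140. Efna5, a ligand with graded expression in many maps of axons, changed by 0.04 (95% interval -0.14 to 0.22), and Efna2 was not tested.

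Of the ephrin-B ligands, which span the membrane and can signal into their own cell, Efnb2 rose. It had levels of 8.19, 8.01, 8.21 and 8.24 in CKO and 7.87, 7.80, 7.71 and 7.87 in WT, and the groups did not overlap. The rise was 0.35 (SE 0.074, 95% interval 0.19 to 0.51, adjusted p = 0.00622), 0.45 against WT.3 alone, and all 22 settings kept it. Efnb2 also marks arteries. Of the 11 tested endothelial markers 2, Emcn and Pecam1, rose. That is 18.2% called, beside 17.8% of all genes in either direction and 9.15% higher. Changes over the list ran from -0.13 to 0.35, with 8 above 0 and 3 below. The part of these markers in the rise of Efnb2 was not tested. Robo4, an endothelial Robo receptor, changed by 0.05 (95% interval -0.15 to 0.26).

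Efnb3 did not overlap between the groups, at 8.02, 8.07, 8.10 and 8.23 in CKO and 7.93, 7.96, 7.65 and 7.99 in WT. WT.3 was far below the other WT arrays, and the change of 0.22 missed the threshold (adjusted p = 0.0899). With the Xist level in the model it was 0.46 (adjusted p = 0.033). Its adjusted p lay between 0.033 and 0.230 across settings. Efnb1, an X-linked ligand, was at 9.43, 9.39, 9.70 and 9.48 in CKO and 9.57, 9.76, 9.62 and 9.85 in WT, a change of -0.20 (adjusted p = 0.144). CKO.3 was the one CKO array inside the WT range, and Efnb1 changed by -0.27 without it (adjusted p = 0.0367). Across settings its adjusted p lay between 0.0358 and 0.638.

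**Figure D4:**
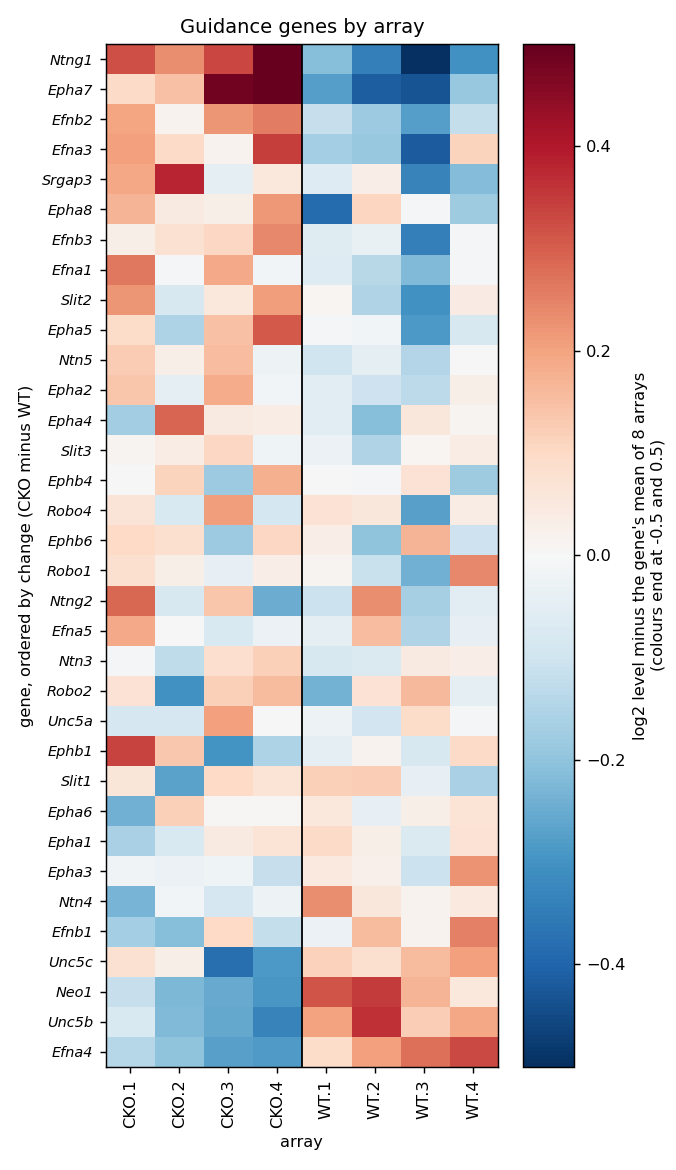
Log2 level of each tested guidance gene on each array as its difference from the gene's mean of 8 arrays (colour), with CKO arrays left of WT arrays and genes ordered by change. Ntng1, Epha7 and Efnb2 at the top and Neo1, Unc5b and Efna4 at the bottom separate the groups, and the genes in the middle rows, such as Ephb1, show no split between the groups.

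Slit ligands and Robo receptors gave no call. Slit2, a main repellent of the family, was at 8.86, 8.56, 8.69 and 8.85 in CKO and 8.65, 8.49, 8.34 and 8.68 in WT, with overlapping groups and a change of 0.20 (adjusted p = 0.172). Slit1 changed by -0.02 and Slit3 by 0.07. Both were dim and close to the filter level of 6.26. Slit1 averaged 6.30 in CKO and 6.32 in WT, and Slit3 6.41 in CKO and 6.34 in WT. Robo1 averaged 10.57 ± 0.050 in CKO and 10.52 ± 0.204 in WT (SD, n = 4 each), a change of 0.05 (95% interval -0.15 to 0.25). Robo2 changed by 0.02 (95% interval -0.21 to 0.26). Srgap3, a GTPase-activating protein that acts below Robo, read 6.64, 6.83, 6.40 and 6.50 in CKO and 6.38, 6.48, 6.11 and 6.23 in WT. Srgap3 was dim too, averaging 6.59 in CKO and 6.30 in WT. Its change of 0.29 (SE 0.102) missed the threshold (adjusted p = 0.0678). It passed without CKO.3 (adjusted p = 0.0255), with array weights, with trended, robust variance moderation and with the replicate number as a block (adjusted p = 0.0162). The range of its adjusted p across settings was 0.0162 to 0.183.

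**Figure D5:**
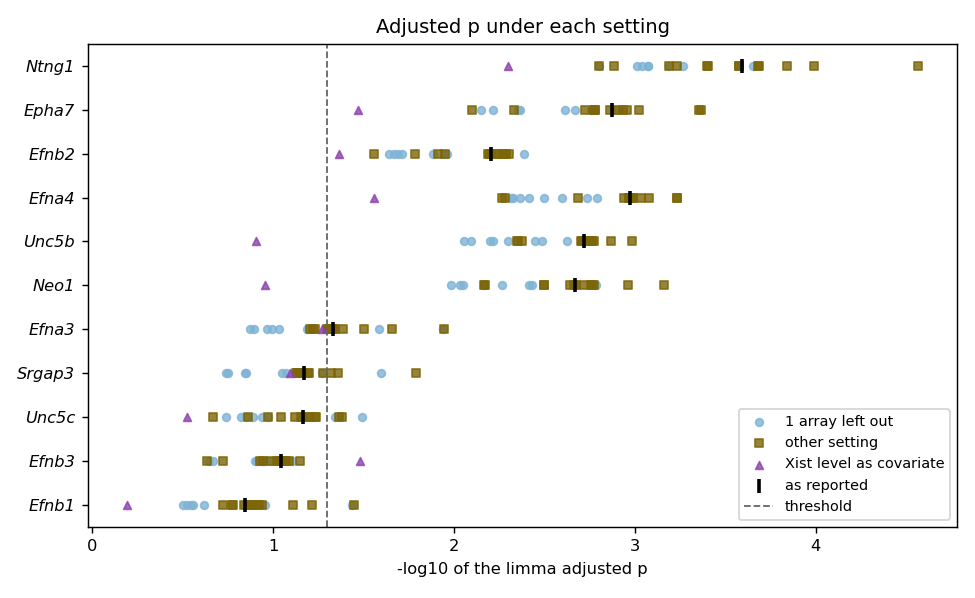
Limma adjusted p on a -log10 scale (horizontal axis) under each setting for the 7 called guidance genes and 4 others, with the reported value as a black bar and the threshold as a dashed line. Ntng1, Epha7, Efnb2 and Efna4 stay to the right of the line throughout, Unc5b and Neo1 cross it with the Xist covariate, and Efna3 straddles it.

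Known partners of these families were read in the same fit. Their changes are not given against WT.3 alone or with the Xist level in the model. Of 24 tested effectors of Eph receptors and ephrins 6 rose and 2 fell, which is 33.3% called, beside 17.8% of all genes. Their median change was 0.09, beside 0.0075 over all genes. Vav3, an exchange factor recruited by Eph receptors, rose by 0.82 (adjusted p = 4.16e-05), and Ptpro, a phosphatase that acts on Eph receptors, by 0.49 (adjusted p = 0.000712). Inppl1, the inositol phosphatase SHIP2, fell by 0.72 (adjusted p = 0.00189) and Sipa1l1, a Rap GTPase-activating protein, by 0.43 (adjusted p = 0.00464). Among 23 tested partners of Slit and Robo 3 rose and 0 fell, or 13.0% called, below the 17.8% of all genes, with a median of 0.01. These were the kinase Pak3 at 0.48 (adjusted p = 0.00147), the ubiquitin ligase adaptor Ndfip1 at 0.35 and the heparan sulfate sulfotransferase Hs6st1 at 0.34.

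Of 22 tested partners of netrins, Dcc and neogenin 2 rose and 2 fell, or 18.2% called, close to the 17.8% of all genes, with a median of 0.02. Draxin, a secreted repellent that binds netrin receptors, averaged 9.25 in CKO and 10.13 in WT and fell by 0.88 (SE 0.256, adjusted p = 0.0311). Rgmb, a repulsive guidance molecule that binds neogenin, rose by 0.45 (adjusted p = 0.0167). Pitpna, a phosphatidylinositol transfer protein, rose by 0.37 (adjusted p = 0.00336), and Dock1, a Rac exchange factor, fell by 0.26 (adjusted p = 0.0252).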

How the data were processed

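Expression was measured on Illumina BeadArrays in 4 CKO and 4 WT cerebella, and the animals are the replicates. The deposited intensity table was exported by the authors from BeadStudio, per the labels, and how background was handled there is not given; its array medians differ, so it was taken as not normalized. The deposited log2 table holds the same arrays after quantile normalization, per its values, and served as an alternative. The number of arrays limits the precision.

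Intensities were background-corrected by normexp (offset 50), quantile-normalized and taken to log2 with limma 3.58.1 in R 4.3.3. The offset shrinks changes of dim genes. Of 25697 probes 23978 had a gene symbol from the platform annotation. The brightest probe stood for a gene. Genes with a mean above the lower quartile of all probes, 6.26 on the log2 scale, were tested, 12912 in all. Genotype was the only term, with lmFit and eBayes, two-sided, and Benjamini-Hochberg adjustment over all genes, threshold 0.05. Adjusted p for separate probes come from the same model over all probes past the filter, and those of a named alternative from the limma fit with that choice changed. The fit was tested on simulated data. Members, marker and partner lists, alternatives and the naming rule (every member, up to 4 called genes per partner list) were chosen with earlier results of these data known. Emcn, Pecam1, Otx2, Eomes, Zic1 and Pcp2 were named after their values were seen. Promoter windows came from RefSeq (GRCm38.p6) for 35 of 39 genes. Alternatives covered background, normalization, the authors' values, filter, probe rule, weights, moderation, replicate number, Xist level and arrays left out.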

Additional observations from a re-analysis of the deposited data

Results flagged for a closer look

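A single array stood far from the other 3 of its group in 5 of the 68 sets of 4 arrays examined, by a criterion that chance meets in about 1 set of 20. In CKO, Epha3 was low on CKO.4, at a log2 level of 8.81 against 8.89 to 8.90 on the others, a gap small in size. Ephb6 was low on CKO.3, at 6.65 against 6.91 to 6.93. Slit1 was low on CKO.2, at 6.04 against 6.37 to 6.41. In WT, both low values were on WT.3, the WT array with a low Xist level: Efnb3 was at 7.65 against 7.93 to 7.99, and Robo4 at 7.91 against 8.22 to 8.25. None of these 5 genes was called. What set these arrays apart was not tested.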

How the results depend on the processing

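Of the 7 called genes, Ntng1, Epha7, Efnb2 and Efna4 kept direction and call under all 22 settings, and Neo1 and Unc5b under all but the Xist covariate. With that covariate 1 gene was lower in place of 3 and 4 were higher, Efnb3 among them in place of Efna3. Over all 12912 genes tested, calls went from 1182 higher and 1115 lower to 363 higher and 430 lower. The cause was not tested. In that fit the WT group holds a single array with a low Xist level. Efna3 passed in 11 of 22 settings. Its change stayed between 0.25 and 0.57. It missed the threshold at a change of 0.44 with offset 16 (adjusted p = 0.0625), 0.31 with median scaling (0.0584), 0.30 with the authors' values (0.0501), 0.57 with the Xist covariate (0.0535) and 0.30 without WT.3 and CKO.3 (0.0605). Counts with 1 array left out were 3 to 5 higher and 3 to 4 lower. No called gene reversed.

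The labels number the arrays 1 to 4 in each group. Over all genes tested, deviations of same-numbered arrays correlated weakly, at 0.06, -0.04, 0.15 and -0.05. Of the 8 arrays 2 correlated best with their own number. Pairing in single genes was not tested. With the replicate block 5 genes were higher, Srgap3 added, and 3 lower.

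Signs turned only for genes that were not called, all with small changes. With the Xist covariate these were Epha1 (0.050), Epha3 (0.052), Epha4 (-0.0093), Ephb4 (-0.030), Ephb6 (-0.15), Slit1 (0.046), Robo2 (-0.17), Ntn3 (-0.038) and Unc5a (-0.090). With median scaling they were Efna5 (-0.0038), Ephb1 (-0.049) and Ntn3 (-0.014), with cyclic loess Ephb1 (-0.012) and with array weights Unc5a (-0.0012). Without WT.3 and CKO.3 they were Robo4 (-0.088), Ntng2 (-0.036) and Unc5a (-0.015). With 1 array left out the changes ranged from -0.014 to 0.10 for Efna5, -0.10 to 0.015 for Epha6, -0.10 to 0.11 for Ephb1, -0.0082 to 0.12 for Ephb6, -0.038 to 0.14 for Ntng2, -0.080 to 0.063 for Slit1, -0.022 to 0.14 for Robo1, -0.051 to 0.13 for Robo2, -0.028 to 0.092 for Robo4 and -0.048 to 0.051 for Unc5a. Levels near the filter, as for Slit1, Slit3, Srgap3, Epha2, Ntn1 and Unc5d, leave little signal over background.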

Other observations

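Some guidance genes varied more among the CKO animals than among the WT animals. Ephb1 (12.14 and 11.94 in CKO.1 and CKO.2, 11.51 and 11.65 in CKO.3 and CKO.4) and Unc5c (11.17 and 11.12, then 10.72 and 10.80) were higher in the first pair of CKO animals, and Epha7 (10.34 and 10.39, then 10.72 and 10.82) was higher in the second pair. Their SDs in CKO were 0.286, 0.226 and 0.242, against 0.078, 0.054 and 0.114 in WT. These 3 genes were picked after their values were seen, and the labels give no feature that separates these animals. The same pairs lay apart on the second principal component over all genes tested. CKO.1 and CKO.2 were at 7.5 and 8.9 there, and CKO.3 and CKO.4 at -17.7 and -2.5. The split is thus not particular to guidance genes, and its source was not tested. The opposite also occurred: Robo1 had an SD of 0.050 in CKO and 0.204 in WT, and Epha3 0.046 in CKO and 0.136 in WT.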
